A study of Mus musculus with 27 samples.

Results

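The B cell receptor and its nearest signalling partners were followed as 9 genes, Cd79a, Cd79b, Cr2, Cd22, Blnk, Btk, Syk, Lyn and Plcg2, chosen by name among the 54532 genes of the count tables. All 9 passed the filter on low counts in every comparison. The libraries came from splenic B cells of wild-type C57BL6 mice, isolated by negative selection and kept in culture for 3 h. The age of the mice that gave the B cells is not given in the sources used here. Experiment 1 held 20 poly-A RNA-seq libraries in 5 groups of 4: cells left unstimulated, cells stimulated with lipopolysaccharide (LPS), LPS with disulfiram (DSF), IL-4+anti-CD40, and IL-4+anti-CD40 with DSF. Experiment 2 held 7 libraries, 1 per condition, which added ibrutinib with each stimulus; both inhibitors were used at 1 μM. Libraries without an inhibitor are named DMSO in the treatment notes. Legends in the paper describe cells with DSF or ibrutinib as pre-treated with the drug and place the RNA-seq 3 h after stimulation. DSF is an inhibitor of aldehyde dehydrogenase, ibrutinib is a covalent inhibitor of the Btk protein, LPS acts on B cells through TLR4, and IL-4 with an antibody to CD40 stands in for T cell help. No stimulus engaged the antigen receptor itself. The study describes the samples of a group in experiment 1 as biologically independent. The labels do not say whether they came from separate mice or cultures, so the p-values measure the spread between these libraries, which may be technical.

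The antigen receptor of a B cell is membrane immunoglobulin held with a pair of signalling chains, CD79a and CD79b. When antigen clusters it, the Src-family kinase Lyn phosphorylates the tails of these chains, Syk docks on them, and Syk then phosphorylates the adaptor Blnk, which gathers Btk and phospholipase C gamma 2 (Plcg2) into a complex that starts calcium release and protein kinase C signalling. Coreceptors tune this step: CD21, a product of Cr2, binds complement fragments and lowers the threshold for activation. CD22 is a sialic acid-binding lectin that Lyn phosphorylates and that recruits the phosphatase Ptpn6 (SHP-1). CD21 is high on marginal zone B cells, and loss of Btk function causes the immunodeficiency of xid mice.

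The promoters of Plcg2 and Cr2 are shown because under DSF in experiment 1 Plcg2 rose most with both stimuli and Cr2 fell most with IL-4+anti-CD40. Each stretch is the 250 bases before the RefSeq transcription start (GRCm38.p6), 5′ to 3′ on the strand of the gene. Capitals mark matches on either strand to CAGGTG (an E-box) and, in Plcg2, 2 overlapping matches, a STAT6-type site (TTC, any 4 bases, GAA) and a pair of heat shock element units (GAANNTTC).
Plcg2, chr8:117498025-117498274, + strand: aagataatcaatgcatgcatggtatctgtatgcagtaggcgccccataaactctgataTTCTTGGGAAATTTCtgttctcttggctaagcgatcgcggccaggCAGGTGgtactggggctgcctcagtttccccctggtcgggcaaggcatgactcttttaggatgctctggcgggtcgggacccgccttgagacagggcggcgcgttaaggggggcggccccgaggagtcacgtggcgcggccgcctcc
Cr2, chr1:195176720-195176969, - strand: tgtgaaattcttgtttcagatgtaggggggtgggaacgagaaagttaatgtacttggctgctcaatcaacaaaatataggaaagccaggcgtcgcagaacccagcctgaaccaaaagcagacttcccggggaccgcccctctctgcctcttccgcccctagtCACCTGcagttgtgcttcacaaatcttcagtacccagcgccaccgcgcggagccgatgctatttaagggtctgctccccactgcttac
In Plcg2 the E-box began 147 bases before the start, the STAT6-type match 192 bases before it and the heat shock match 185 bases before it. In Cr2 the E-box began 88 bases before the start. The RefSeq promoter table held 7 of the 9 members. The letters CAGGTG were present in windows of 6 of them, against 20.2% of all 32851 windows of the same length, which run 250 bases before to 50 bases after a start. GAGGAA (PU.1-type) was found for 3 members against 28.3% of windows, CCCNNGGG (EBF core) for 1 against 13.7%, the octamer ATGCAAAT for 1, Blnk, against 1.74%, and TGACTCA (AP-1) for 0 against 5.20%. The STAT6-type and heat shock letters were each found for Plcg2 alone, against 6.95% and 7.86% of windows. A match is a description of the letters and no measure of binding.

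In unstimulated cells of experiment 1 the receptor chains stood far above the rest. Levels are given as deposited FPKM (fragments scaled to gene length and library size), which allow comparison between genes. Cd79a (ENSMUSG00000003379, mm10 chr7:24897381-24902197, + strand) measured 1077 ± 208 FPKM and Cd79b (ENSMUSG00000040592, chr11:106311341-106314762, - strand) 927 ± 56.2 FPKM (mean ± SD, n = 4), and their libraries overlapped. Cd22 (ENSMUSG00000030577, chr7:30865402-30880342, - strand) followed at 137 ± 87.6 FPKM. The kinases Syk (ENSMUSG00000021457, chr13:52583173-52648792, + strand), Lyn (ENSMUSG00000042228, chr4:3678115-3813122, + strand) and Btk (ENSMUSG00000031264, chrX:134542336-134583570, - strand) measured 102 ± 7.14, 100 ± 5.30 and 77.9 ± 0.68 FPKM. Plcg2 (ENSMUSG00000034330, chr8:117498291-117635142, + strand) lay at 79.3 ± 23.8, Cr2 (ENSMUSG00000026616, chr1:195136811-195176716, - strand) at 58.8 ± 53.6 and the adaptor Blnk (ENSMUSG00000061132, chr19:40928927-40994535, - strand) at 35.9 ± 9.48 FPKM. From Cd22 downwards each gene overlapped its neighbour in this order. Cd22 and Lyn share exon bases with a gene of the opposite strand, Cd22 with Gm29439 over 479 bases, which had 0 counts, and Lyn with Gm26857 over 248 bases, which had 29.9 counts on average. The strand setting of the counting is not given in the sources used here, so reads of such pairs cannot be told apart.

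The order changed with the stimulus. With LPS, Cd79a (592 ± 34.1 FPKM) stayed above Cd79b (293 ± 9.97 FPKM) with no overlap, and Lyn came next at 118 ± 3.31 FPKM. With IL-4+anti-CD40 the chains changed places, Cd79b at 679 ± 94.5 FPKM and Cd79a at 301 ± 16.5 FPKM, and Cr2 came next at 80.2 ± 11.8 FPKM. Plcg2 was the highest member after the chains in both DSF groups, at 104 ± 4.13 FPKM (LPS) and 77.8 ± 2.41 FPKM (IL-4+anti-CD40), in each case with no overlap with the next gene, Lyn. Blnk varied least over the 5 groups, with group means from 25.1 to 35.9 FPKM, and Cr2 most, with a ratio of 7.39 between its highest and lowest group means.

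**Figure D1:**
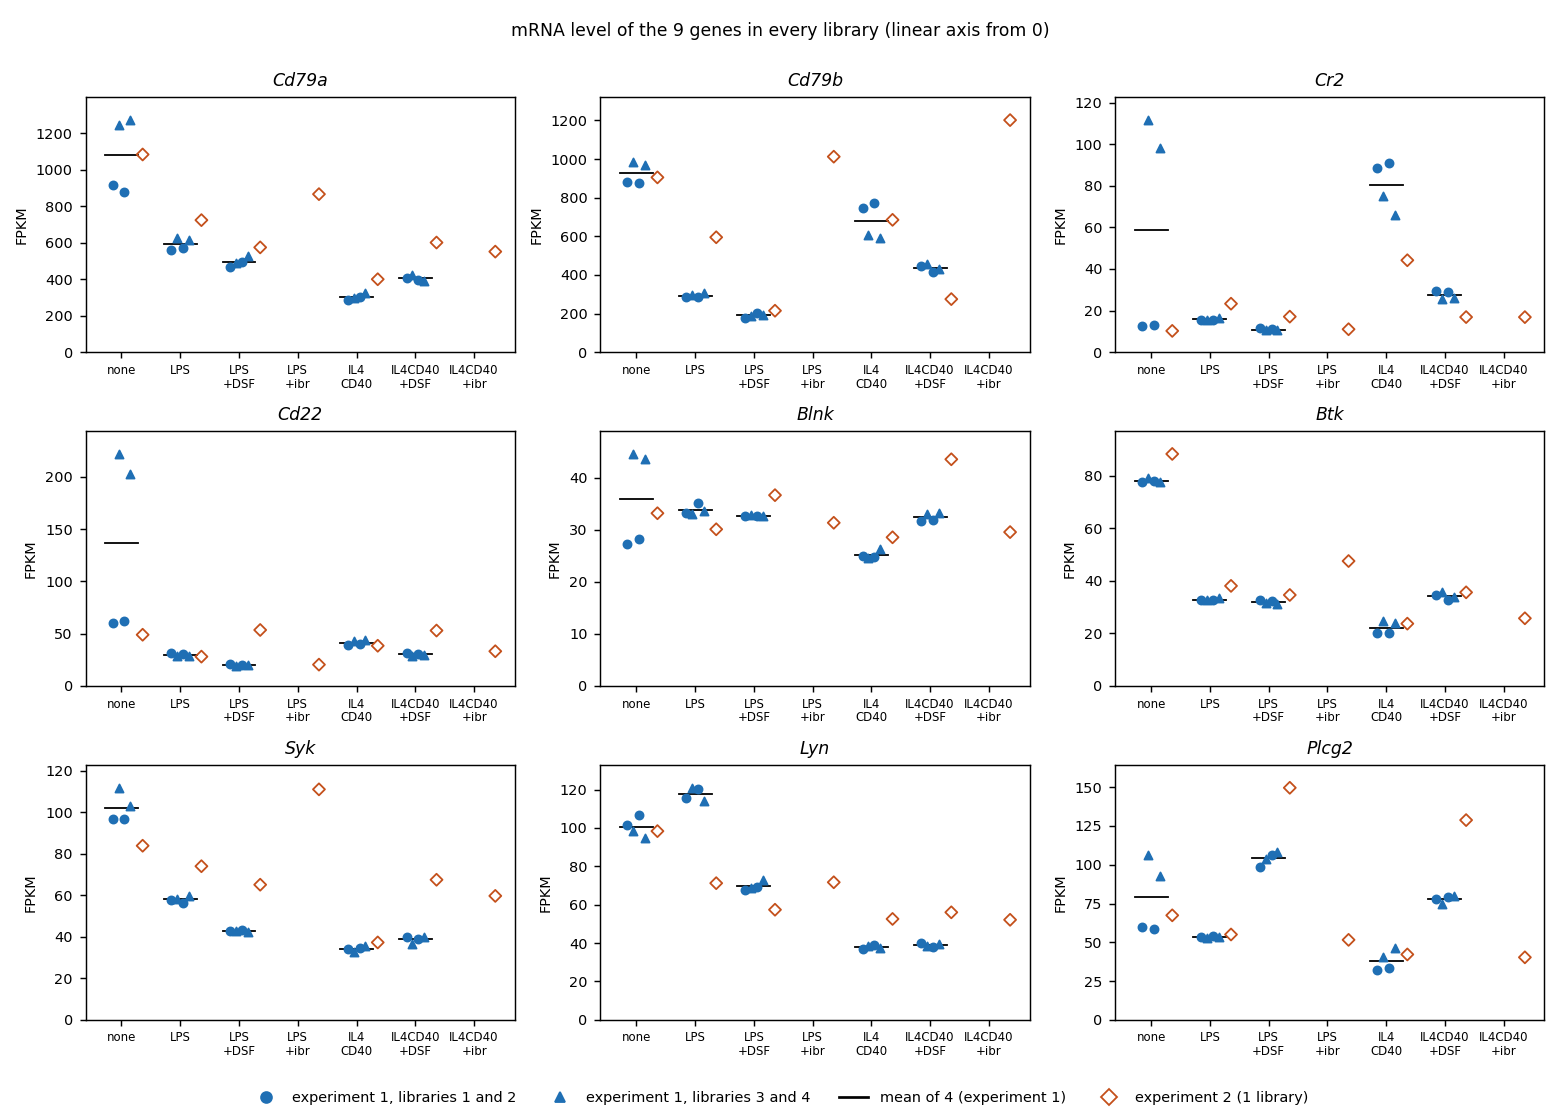
Deposited FPKM (linear axis from 0) of each of the 9 genes in every library; circles and triangles are experiment 1 libraries 1 and 2, and 3 and 4, black lines the mean of 4, and open diamonds the 1 library per condition of experiment 2 (ibr, ibrutinib). Plcg2 is higher with DSF under both stimuli, Cr2 is high with IL-4+anti-CD40, and the unstimulated libraries of Cr2 and Cd22 fall into 2 pairs.

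Before any comparison with unstimulated cells, a split among those 4 libraries has to be stated. Between the means of libraries 1 and 2 and of libraries 3 and 4, 872 of 10273 genes (8.49%) differed 2-fold or more, against 3 genes between libraries 1 and 2 and 19 between 3 and 4. The same count was 4 genes with LPS, 7 with LPS+DSF, 142 with IL-4+anti-CD40 and 61 with IL-4+anti-CD40+DSF. Cr2 in the unstimulated libraries measured 12.4, 12.8, 112 and 98.4 FPKM, so libraries 3 and 4 were 8.31 times as high as libraries 1 and 2. Cd22 measured 60.7, 62.2, 222 and 203 FPKM, a ratio of 3.46. The ratio was 1.68 for Plcg2, 1.59 for Blnk and 1.40 for Cd79a, and between 0.92 and 1.11 for Cd79b, Btk, Syk and Lyn. Ptpn6, the phosphatase that CD22 recruits, measured 120, 120, 313 and 289 FPKM in the same order. The unstimulated library of experiment 2 held 10.2 FPKM of Cr2 and 49.0 FPKM of Cd22, close to libraries 1 and 2. Markers of other cells and of B cell subsets moved with the split. S100a9, a neutrophil gene, measured 36.7, 35.5, 6.18 and 8.65 FPKM, and the summed FPKM of the 8 neutrophil markers ran from 25.2 to 80.2. Cd14, a myeloid gene, measured 19.1, 19.8, 0.87 and 1.12 FPKM. Other genes of the same lists were higher in libraries 3 and 4. Retnlg (neutrophil) measured 0.19, 0.13, 8.37 and 8.20 FPKM, and Lyz2 (myeloid) 277, 268, 391 and 406 FPKM. Also higher there was the erythroid factor Klf1, at 0.32, 0.35, 4.45 and 3.87 FPKM. The marginal zone marker Cd1d1 measured 5.44, 6.29, 22.2 and 24.0 FPKM, but Cd9, of the same list, 41.3, 36.5, 11.3 and 11.4 FPKM. The follicular marker Fcer2a (CD23) measured 108, 107, 297 and 280.4 FPKM. Their part in the split was not tested. The labels name no batch, and the cause of the split was not tested.

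The markers of other cell types are given for the same reason. All 9 B cell markers were detected in every group of both experiments, with summed FPKM from 6712 to 10165 in experiment 1. Defining T cell genes were near 0, with Cd3d, Cd3e and Cd3g at most 1.20 FPKM in any library of experiment 1. Summed FPKM of the 8 myeloid markers, all of them detected, was 338 to 441 in unstimulated cells and 94.98 to 167 in the 4 stimulated groups. Lyz2 made up most of it, at 268 to 406 FPKM without a stimulus and 49.8 to 116 with one. In experiment 2 the myeloid sum was 16.3 to 35.2. Several members, such as Syk, Lyn, Btk and Plcg2, are also expressed by myeloid cells, and the part of these cells in the results was not tested. In bulk RNA, fewer cells of a type and less RNA per cell cannot be told apart.

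LPS lowered most of the receptor complex within 3 h, and Lyn alone rose. Of the 9 members 7 were called lower and 1 higher (edgeR quasi-likelihood test, Benjamini-Hochberg adjusted p under 0.05), where 33.3% of the 14477 genes tested were called lower and 29.6% higher. The median log2 fold change was -0.85 over the members and -0.05 over all genes. Cd79b fell from 881, 876, 983 and 968 FPKM to 285, 286, 294 and 307 FPKM, log2 fold change -1.65 (SE 0.08, adjusted p = 7.0e-07). Btk fell from 77.6, 77.8, 78.9 and 77.4 FPKM to 32.6, 32.8, 32.6 and 33.3 FPKM, or by 1.23 on the log2 scale (SE 0.05, adjusted p = 4.0e-07). For both genes the groups did not overlap, and the unstimulated pairs gave nearly the same value. Cd79a, the partner chain of Cd79b, fell less, by 0.85 on the log2 scale (SE 0.14, adjusted p = 0.00081), from 918, 879, 1242 and 1271 FPKM to 557, 569, 627 and 614 FPKM. Syk fell by 0.80 (SE 0.07, adjusted p = 2.5e-05). Lyn rose from 102, 107, 98.2 and 94.5 FPKM to 116, 120, 121 and 114 FPKM, log2 fold change 0.24 (SE 0.06, adjusted p = 0.0055), without overlap. This call was lost when libraries were scaled by total counts, where the log2 fold change was 0.02 with an adjusted p of 0.84.

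For the coreceptors the value depended on the unstimulated libraries. Here and below, the library pairs were chosen after the data were seen. A fit with only 1 unstimulated pair leaves out the spread between the pairs, which its p-values therefore do not measure. Cd22 was called lower with LPS, by 2.20 on the log2 scale (SE 0.45, adjusted p = 0.0024), from the levels above to 31.2, 30.3, 28.4 and 29.0 FPKM. Its log2 fold change was -1.02 against unstimulated libraries 1 and 2 alone and -2.81 against 3 and 4 alone, and both passed the test. Cr2, at 15.5, 15.6, 15.4 and 16.5 FPKM with LPS, overlapped the unstimulated group. Its log2 fold change of -1.90 (SE 0.71, adjusted p = 0.042) turned to 0.35 against libraries 1 and 2 (adjusted p = 6.0e-07) and was -2.70 against 3 and 4. Leaving out unstimulated library 3 or 4, or any of the 4 LPS libraries, also ended the Cr2 call, with adjusted p from 0.086 to 0.11. Plcg2, called lower by 0.56 (SE 0.19, adjusted p = 0.032), lost its call when the same libraries were left out, with log2 fold changes of -0.38 to -0.56 and adjusted p from 0.068 to 0.077, and kept its direction with -0.12 and -0.87 against the pairs. Blnk did not pass the test (log2 fold change -0.08, SE 0.18, adjusted p = 0.71) and differed in sign between the pairs, at 0.31 and -0.36.

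IL-4+anti-CD40 lowered 8 of the 9 members and raised 0, where 32.1% of the 14433 genes tested were called lower and 30.4% higher. At an unadjusted p under 0.05 the number raised was also 0, and DESeq2 called 0. The median log2 fold change of the members was -1.39, against -0.04 over all genes. Cd79a fell to 285, 299, 295 and 324 FPKM, by 1.82 on the log2 scale (SE 0.15, adjusted p = 1.4e-05). Cd79b fell only by 0.43 (SE 0.11, adjusted p = 0.0098), to 749, 772, 606 and 590.5 FPKM. The 3 kinases fell together and did not overlap the unstimulated libraries. Btk reached 19.98, 20.1, 24.8 and 24.0 FPKM, log2 fold change -1.79 (SE 0.09, adjusted p = 1.4e-06). Syk reached 33.96, 34.7, 32.9 and 35.6 FPKM, log2 fold change -1.55 (SE 0.08, adjusted p = 1.6e-06). Lyn, called higher with LPS except with total-count scaling, reached 36.7, 38.8, 38.5 and 37.3 FPKM, log2 fold change -1.39 (SE 0.07, adjusted p = 1.1e-06). Plcg2 fell by 1.04 (SE 0.22, adjusted p = 0.0028), to 32.3, 33.5, 40.8 and 46.3 FPKM.

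Blnk fell by 0.50 (SE 0.18, adjusted p = 0.034), and this call was lost without unstimulated library 3 or 4 or without any of the 4 IL-4+anti-CD40 libraries, with adjusted p from 0.062 to 0.085. Cd22 fell by 1.71 (SE 0.43, adjusted p = 0.0074), and by 0.56 and 2.33 against the pairs. Cr2 was the member with no call, and its 88.7, 91.0, 75.0 and 66.0 FPKM lay between the unstimulated pairs. Its log2 fold change was 0.46 (SE 0.68, adjusted p = 0.58) against all 4 unstimulated libraries, 2.67 against libraries 1 and 2 (adjusted p = 9.8e-07) and -0.37 against 3 and 4 (adjusted p = 0.023). No direction can be given for Cr2 in these cells.

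**Figure D2:**
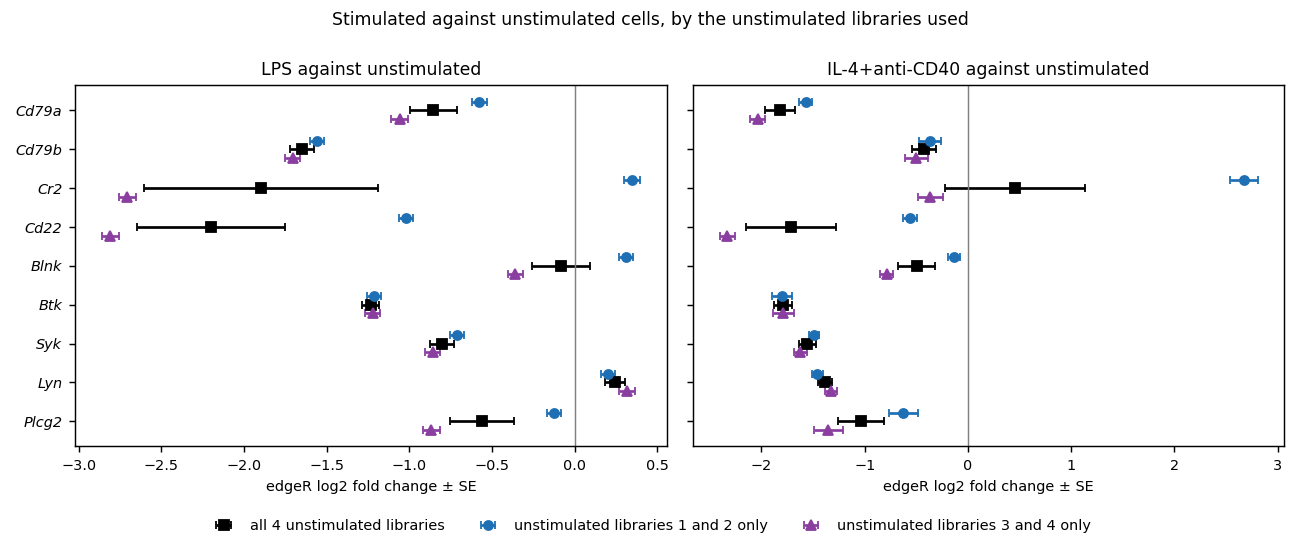
edgeR log2 fold change ± SE of each gene with LPS (left) or IL-4+anti-CD40 (right) against all 4 unstimulated libraries (squares), libraries 1 and 2 only (circles) or 3 and 4 only (triangles). Cd79b, Btk, Syk and Lyn keep nearly the same value in all 3, whereas Cr2 lies on both sides of 0 under each stimulus.

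The direct comparison of the stimuli did not use the unstimulated libraries, and all 9 members differed. With LPS 6 members were higher and 3 lower than with IL-4+anti-CD40, against 22.3% and 17.3% of the 14078 genes tested. Lyn was 3.22 times as high with LPS (log2 difference 1.69, SE 0.04, adjusted p = 1.5e-10), Cd79a 2.03 times (1.02, SE 0.06, adjusted p = 5.7e-08) and Syk 1.75 times (0.81, SE 0.04, adjusted p = 4.1e-08). Btk, Plcg2 and Blnk were higher by 0.61, 0.53 and 0.47 on the log2 scale. In the other direction Cr2 was lower with LPS by 2.29 (SE 0.09, adjusted p = 2.9e-09), Cd79b by 1.16 (SE 0.08, adjusted p = 3.4e-07) and Cd22 by 0.43 (SE 0.06, adjusted p = 6.9e-05). Thus the chains of the receptor heterodimer differed in opposite directions, and so did the coreceptors and the kinases. The Cd22 call was lost in the fit over all 20 libraries (-0.44, adjusted p = 0.28), where the split of the unstimulated libraries enters the estimate of the spread.

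DSF changed 7 of the 9 members in LPS-stimulated cells, 6 of them downwards. Of the 14154 genes tested 36.0% were called lower and 35.1% higher. Plcg2, the phospholipase at the end of the proximal cascade, rose from 53.1, 54.2, 52.8 and 53.4 FPKM to 98.8, 106, 103 and 108 FPKM, 1.98 times (log2 fold change 0.98, SE 0.04, adjusted p = 3.9e-17). Lyn had been called higher with LPS except with total-count scaling. With DSF Lyn fell from 116, 120, 121 and 114 FPKM to 67.8, 69.3, 68.7 and 72.8 FPKM, log2 fold change -0.74 (SE 0.04, adjusted p = 1.3e-14). In both cases all 4 DSF libraries lay on the same side of all 4 without it. Cd79b fell further, to 179, 205, 189 and 192 FPKM, with log2 fold change -0.60 (SE 0.04, adjusted p = 5.1e-12). Cd79a fell by 0.24 (SE 0.05, adjusted p = 4.6e-05), to 465, 492, 489 and 528 FPKM, and Syk by 0.42 (SE 0.04, adjusted p = 3.6e-10), to 42.9, 43.5, 42.6 and 42.2 FPKM. The coreceptors were lower as well. Cr2 fell by 0.52 (SE 0.04, adjusted p = 9.4e-11), to 11.4, 11.1, 10.5 and 10.4 FPKM. Cd22 fell by 0.54 (SE 0.04, adjusted p = 4.2e-11), to between 19.4 and 21.2 FPKM. In the fit over all 20 libraries the values for Cr2 and Cd22 were -0.54 and -0.55, but neither passed the test, with adjusted p of 0.34 and 0.11.

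Blnk and Btk did not pass the test with LPS. Blnk measured 32.6, 32.6, 32.9 and 32.7 FPKM with DSF against 33.1, 35.2, 33.0 and 33.6 without it (log2 difference -0.03, SE 0.04, adjusted p = 0.54). Btk measured 32.9, 32.3, 31.7 and 31.2 FPKM with DSF against 32.6, 32.8, 32.6 and 33.3 without it (log2 difference -0.02, SE 0.04, adjusted p = 0.69). Scaling by total counts moved the median of all genes by -0.21 on the log2 scale in this comparison, and on that scale Blnk and Btk were called lower, at -0.24 and -0.23. On that scale the share of called genes that were higher went from 49.4% to 34.2%.

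With IL-4+anti-CD40, DSF raised 5 members and lowered 3. Of the 14275 genes tested 30.1% were called higher and 31.6% lower. Plcg2 rose again, from 32.3, 33.5, 40.8 and 46.3 FPKM to 77.9, 79.0, 74.4 and 79.9 FPKM, 2.01 times (log2 fold change 1.00, SE 0.10, adjusted p = 1.0e-05). Btk rose to 34.7, 32.6, 35.6 and 33.9 FPKM, log2 fold change 0.60 (SE 0.08, adjusted p = 5.6e-05). Cd79a rose by 0.41 (SE 0.06, adjusted p = 7.3e-05), to 408, 394, 422 and 392 FPKM. Blnk rose by 0.35 (SE 0.05, adjusted p = 5.8e-05), to 31.7, 32.0, 33.1 and 33.3 FPKM. None of these groups overlapped.

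Syk rose by 0.16 (SE 0.05, adjusted p = 0.016), from 33.96, 34.7, 32.9 and 35.6 to 39.8, 39.0, 36.5 and 39.9 FPKM. This small change lost its call without IL-4+anti-CD40 library 3 (adjusted p = 0.054), without DSF library 4 (adjusted p = 0.053) and with total-count scaling, where it was 0.01. Cr2 fell most, from 88.7, 91.0, 75.0 and 66.0 FPKM to 29.4, 28.7, 25.5 and 26.0 FPKM, log2 fold change -1.57 (SE 0.10, adjusted p = 8.7e-07). Cd79b fell by 0.65 (SE 0.09, adjusted p = 5.4e-05), to 447, 413, 459 and 433 FPKM, so that it overlapped Cd79a. Cd22 fell by 0.48 (SE 0.06, adjusted p = 2.9e-05), to 31.9, 30.9, 28.7 and 29.7 FPKM, with an adjusted p of 0.24 in the fit over all 20 libraries. Lyn, at 40.2, 37.7, 38.7 and 39.4 FPKM with DSF, overlapped the libraries without it (log2 difference 0.02, SE 0.04, adjusted p = 0.66). With total-count scaling, which moved the median of all genes by -0.15, Lyn was called lower at -0.13. The share of called genes that were higher then went from 48.8% to 35.9%.

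**Figure D3:**
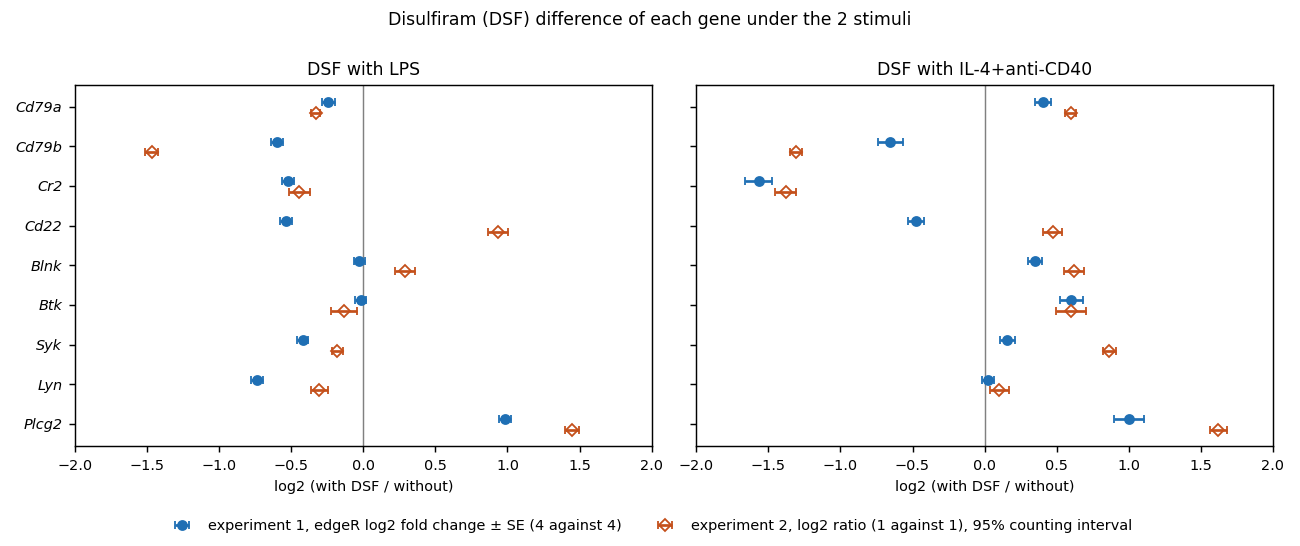
Log2 difference between cells with and without DSF under LPS (left) and IL-4+anti-CD40 (right); filled circles are edgeR log2 fold changes ± SE of experiment 1 (4 against 4 libraries), open diamonds the ratio of 1 against 1 library in experiment 2 with its 95% counting interval. Plcg2 lies above 0 and Cd79b and Cr2 below 0 in all 4 sets, and Cd22 lies on opposite sides of 0 in the 2 experiments.

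The response to DSF differed between the stimuli for 6 of the 9 members, by the interaction term over 16 libraries. For 5 of them the DSF difference was lower with LPS and for 1 higher, where 6.96% of the 15130 genes tested were called lower and 7.92% higher. Lyn differed by -0.77 (SE 0.06, adjusted p = 4.7e-08), since it fell with LPS and not detectably with IL-4+anti-CD40. Cd79a differed by -0.65 (SE 0.08, adjusted p = 8.7e-06) and Syk by -0.58 (SE 0.06, adjusted p = 1.9e-06), both falling with LPS and rising with IL-4+anti-CD40. Btk differed by -0.63 (SE 0.09, adjusted p = 5.4e-05) and Blnk by -0.38 (SE 0.06, adjusted p = 0.00013). Cr2 differed by 1.04 (SE 0.11, adjusted p = 2.8e-06), falling further with IL-4+anti-CD40. Plcg2, Cd79b and Cd22 had interaction terms of -0.03 (SE 0.12), 0.05 (SE 0.10) and -0.07 (SE 0.07), with adjusted p of 0.91, 0.79 and 0.61. Each of these 3 genes passed the test in the same direction with both stimuli. In the fit over all 20 libraries the Cr2 and Blnk terms were 0.97 and -0.45 and did not pass the test (adjusted p = 0.45 and 0.13).

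Cells given both DSF and a stimulus still differed from unstimulated cells. In LPS cells given DSF, 7 members were called lower and 0 higher, against 37.3% and 34.3% of the 14663 genes tested. With DSF and IL-4+anti-CD40, 6 were called lower and 0 higher, against 35.3% and 33.4% of the 14678 genes tested. DESeq2 also called 0 members higher in both, and 0 were higher at an unadjusted p under 0.05. Cd79b was 4.83 times lower under LPS plus DSF (log2 fold change -2.27, adjusted p = 9.3e-08) and 2.10 times lower under IL-4+anti-CD40 plus DSF (-1.07, adjusted p = 4.8e-06). Btk was lower by 1.28 and 1.18 on the log2 scale and Syk by 1.25 and 1.38. Plcg2 did not pass the test in either, at 0.40 (SE 0.19, adjusted p = 0.090) and -0.02 (SE 0.19, adjusted p = 0.94). Against unstimulated libraries 1 and 2 alone it was higher, by 0.79 and 0.38. Against libraries 3 and 4 alone it was 0.06 and -0.35. Without unstimulated library 3 the first of these was called higher, at 0.55 (adjusted p = 0.018). Cr2 under IL-4+anti-CD40 plus DSF had -1.10 (adjusted p = 0.18), and was called lower without unstimulated library 1 or 2 (-1.45 and -1.45, adjusted p = 0.047 and 0.0497), with 1.102 and -1.93 against the pairs. These comparisons share the unstimulated libraries with those above.

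In experiment 2, with 1 library per condition, no test is possible and values are log2 ratios with 95% counting intervals, which cover counting error only. A gene is counted here when its ratio was 2-fold or more among 14275 genes averaging 10 counts or more. With LPS against unstimulated cells 1 member, Cr2, was 2-fold higher and 1, Btk, 2-fold lower, where 8.62% and 9.88% of genes were. With IL-4+anti-CD40, 1 member, Cr2, was 2-fold higher and 3, Cd79a, Btk and Syk, 2-fold lower, where 10.7% and 13.7% of genes were. Cr2 and Lyn, called lower and higher with LPS in experiment 1, had log2 ratios of the other sign here, 1.19 and -0.46. The other 6 members called with LPS kept their sign. Btk was about as low as before, at -1.21 against -1.23 in experiment 1. The rest fell less: Cd79b by 0.60 against 1.65, Cd22 by 0.80 against 2.20 and Syk by 0.18 against 0.80. Cd79a fell by 0.58 against 0.85 and Plcg2 by 0.29 against 0.56.

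With DSF in experiment 2, Plcg2 went under LPS from 55.0 to 150 FPKM (log2 ratio 1.45, interval 1.397 to 1.498) and under IL-4+anti-CD40 from 42.2 to 129 FPKM (1.62, interval 1.56 to 1.68). Cd79b went under LPS from 595 to 215 FPKM (-1.47, interval -1.51 to -1.42) and with IL-4+anti-CD40 from 685 to 275 FPKM (-1.31, interval -1.35 to -1.26). Cr2 went under IL-4+anti-CD40 from 44.2 to 16.9 FPKM (-1.38, interval -1.45 to -1.31). With LPS 1 member was thus 2-fold higher and 1 lower, where 20.3% and 19.5% of genes were. With IL-4+anti-CD40 1 was 2-fold higher and 2 lower, where 21.9% and 20.3% of genes were. Cd22, called lower for DSF in experiment 1, had the other sign here under both stimuli. It went from 28.1 to 53.6 FPKM with LPS (0.93, interval 0.87 to 1.00) and from 38.5 to 53.0 FPKM with IL-4+anti-CD40 (0.47, interval 0.41 to 0.54). Syk, with 65.1 FPKM against 74.0 under LPS and 67.5 against 37.3 under IL-4+anti-CD40, had the signs of experiment 1.

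Other cell markers moved with DSF too. The summed FPKM of the 10 T cell markers was 62.0 to 68.3 with LPS and DSF against 33.98 to 37.0 with LPS, and 49.5 to 53.9 against 15.6 to 21.3 with IL-4+anti-CD40. In experiment 2 it was 115 against 31.6 and 110 against 19.9. Nearly all of this was Cd2, a T and NK cell adhesion receptor that mouse B cells also carry, at 99.5 FPKM with LPS and DSF in experiment 2, whereas Cd3e was 0.014 FPKM there. Trac, the constant gene of the T cell receptor alpha chain, was higher with DSF as well, at 4.11 to 5.87 against 1.05 to 1.76 FPKM with LPS and 3.51 to 4.43 against 1.17 to 2.12 FPKM with IL-4+anti-CD40. In experiment 2 it was 6.20 against 2.43 and 4.04 against 1.68 FPKM. Cd8a was 1.23 against 0.58 and 1.08 against 0.48 FPKM in experiment 2, and at most 0.27 FPKM in any library of experiment 1. The 7 erythroid markers summed to 92.9 FPKM against 36.7 with LPS and 81.0 against 34.3 with IL-4+anti-CD40 in experiment 2, and to at most 4.83 in any stimulated library of experiment 1. B cell subset markers moved too, and neither list holds Cr2. The 4 follicular markers summed to 379 to 413 FPKM with LPS and DSF against 667 to 711 with LPS, and to 464 to 508 against 920 to 1316 with IL-4+anti-CD40. The 6 marginal zone markers summed to 326 to 374 against 271 to 296 with LPS and 328 to 361 against 199 to 214 with IL-4+anti-CD40. Single genes of these lists did not all follow the sums. Plac8 (marginal zone) was lower with DSF under LPS, at 119 to 135 against 146 to 160 FPKM. S1pr3 (marginal zone) was lower under IL-4+anti-CD40, at 8.22 to 9.60 against 12.8 to 16.8 FPKM. Of the follicular genes, Fcer2a was 329 to 368 against 729 to 1098 FPKM with IL-4+anti-CD40, and Klf2 overlapped under LPS. The myeloid sum was 131 to 167 against 99.1 to 115 with IL-4+anti-CD40, and the groups with and without DSF overlapped under LPS. The part of these cells and subsets in the DSF results was not tested.

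Ibrutinib blocks the Btk protein. With LPS and ibrutinib 0 members were 2-fold higher and 1 lower, where 2.81% and 2.47% of genes were. With IL-4+anti-CD40 it was again 0 and 1, where 2.23% and 1.69% of genes were. The member past 2-fold was Cr2 in both. It went from 23.3 to 11.02 FPKM with LPS (log2 ratio -1.06, interval -1.14 to -0.98) and from 44.2 to 16.8 FPKM with IL-4+anti-CD40 (-1.38, interval -1.44 to -1.33). Cd79b was higher with ibrutinib under both stimuli, at 1013 against 595 FPKM (0.79, interval 0.76 to 0.81) and 1202 against 685 FPKM (0.82, interval 0.79 to 0.84). Syk was higher too, at 111 against 74.0 FPKM (0.60) and 59.7 against 37.3 FPKM (0.69), and Cd79a by 0.28 and 0.47. The target of the drug, Btk, had ratios of 0.34 (47.5 against 38.1 FPKM) and 0.13 (25.7 against 23.7 FPKM). Blnk (0.08 and 0.06), Lyn (0.03 and -0.0049) and Plcg2 (-0.07 and -0.06) had the ratios nearest to 0.

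Set against each other at the same concentration, the inhibitors differed most in Cd79b and Plcg2. With LPS 2 members, Cd22 and Plcg2, were 2-fold higher with DSF than with ibrutinib and 1, Cd79b, 2-fold lower, where 19.5% and 19.3% of genes were. With IL-4+anti-CD40 1, Plcg2, was higher and 1, Cd79b, lower, where 20.6% and 19.9% of genes were. Cd79b was 4.77 times lower with DSF than with ibrutinib under LPS (log2 ratio -2.25, interval -2.29 to -2.21) and 4.37 times lower under IL-4+anti-CD40 (-2.13, interval -2.17 to -2.09). Plcg2 was 2.87 and 3.20 times higher with DSF. Cr2 was lower with each drug. Under LPS its log2 ratios were -0.44 (DSF, interval -0.52 to -0.37) and -1.06 (ibrutinib), a difference of 0.62 (interval 0.53 to 0.70), and under IL-4+anti-CD40 the drugs differed by 0.0045 on the log2 scale (interval -0.075 to 0.084). No pair could be tested, since each condition is 1 library, and both drugs were set against the same uninhibited library.

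**Figure D4:**
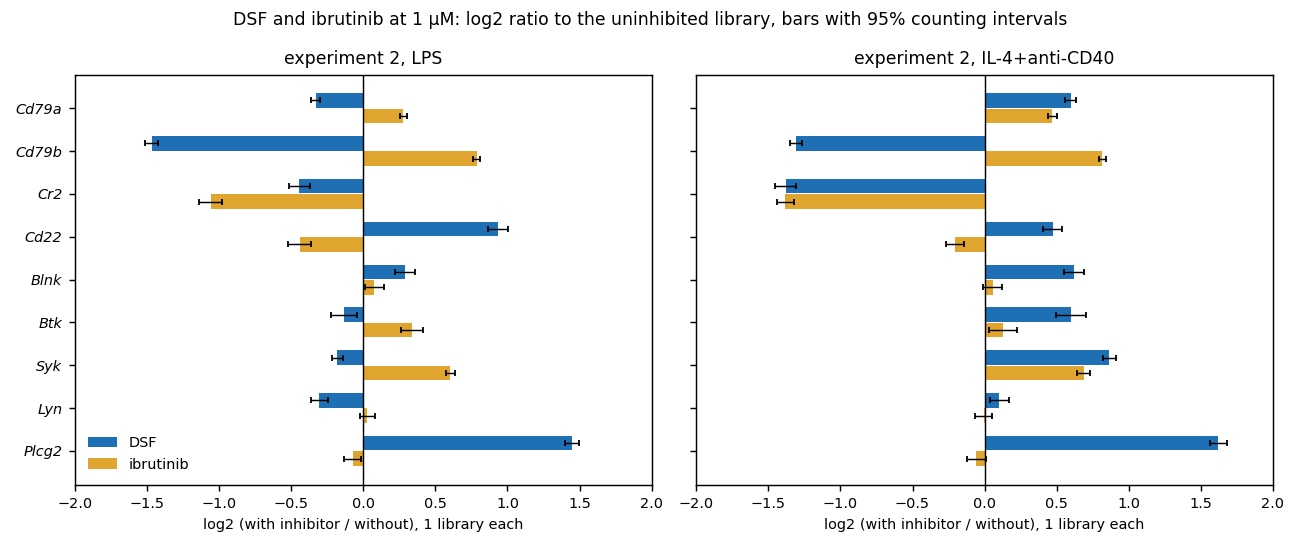
Log2 ratio of each gene in the library with DSF (blue) or ibrutinib (yellow), both at 1 μM, to the library with the stimulus alone in experiment 2, with LPS (left) and IL-4+anti-CD40 (right); error bars are 95% counting intervals. Cd79b is lower with DSF and higher with ibrutinib, Plcg2 is higher with DSF only, and Cr2 is lower with both.

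The rest of the pathway was read from a list of 80 other genes in 7 roles. With LPS 15 were called higher and 46 lower against unstimulated cells, where 29.6% and 33.3% of all genes tested were. With IL-4+anti-CD40 it was 12 and 51, where 30.4% and 32.1% of genes were. Their median log2 fold changes were -0.55 and -0.66, against -0.05 and -0.04 over all genes. With DSF, 33 of the 79 tested rose and 30 fell under LPS, and 43 rose and 22 fell under IL-4+anti-CD40, with medians of 0.04 and 0.27 against 0.0019 and -0.02 over all genes. Of all genes tested, DSF raised 35.1% and lowered 36.0% under LPS, and raised 30.1% and lowered 31.6% under IL-4+anti-CD40. The interaction term was called lower for 26 of the 79 and higher for 9, where 6.96% and 7.92% of genes were.

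Of the 6 antigen-binding and coreceptor chains 4 were called lower with each stimulus, where 33.3% (LPS) and 32.1% (IL-4+anti-CD40) of genes were. Ighm fell by 0.76 (LPS) and 1.07 (IL-4+anti-CD40) on the log2 scale, and Ighd by 0.51 and 1.07. DSF raised Ighm by 0.13 and 0.32 with the respective stimuli and lowered Ighd by 0.46 with LPS only, with -0.10 (adjusted p = 0.067) under IL-4+anti-CD40 and a tested difference of -0.36 (adjusted p = 0.00040).

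Of the 9 inhibitory receptors 6 fell and 2 rose with DSF under LPS, where 36.0% and 35.1% of genes did. Under IL-4+anti-CD40 6 rose and 3 fell, where 30.1% and 31.6% of genes did. The interaction term was called lower for 6 of them and higher for 0, against 6.96% and 7.92% of genes. Fcgr2b, the low-affinity IgG receptor that dampens the antigen receptor, fell with DSF under LPS from 28.1 ± 1.68 to 10.2 ± 0.29 FPKM (log2 fold change -1.45, SE 0.05, adjusted p = 6.2e-19). Under IL-4+anti-CD40 it rose from 4.70 ± 1.46 to 11.7 ± 0.46 FPKM (1.30, SE 0.17, adjusted p = 5.7e-05), and the difference between the stimuli was -2.76 (SE 0.18, adjusted p = 8.1e-09). Fcrl5 fell with DSF by 1.55 and 0.60, and Cd5, a negative regulator on B1 and T cells, rose by 2.13 and 1.41, from a low level of 1.02 ± 0.15 and 1.42 ± 0.47 FPKM. Against unstimulated cells Ceacam1 was lower by 3.66 (LPS) and 4.12 (IL-4+anti-CD40) on the log2 scale, and Siglecg, a relative of CD22, was 5.18 times lower under IL-4+anti-CD40 plus DSF than in unstimulated cells. Lair1, under 1 FPKM in the group means, was lower by 2.30 with LPS than in unstimulated cells and lower with LPS than with IL-4+anti-CD40 by 1.99.

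Of the 8 phosphatases 7 were called lower and 1 higher with LPS, where 33.3% and 29.6% of genes were, and 6 lower and 1 higher with IL-4+anti-CD40, where 32.1% and 30.4% were. Ptpn6, whose unstimulated libraries split in the way given above, fell by 1.43 (LPS) and 1.32 (IL-4+anti-CD40) against all 4 of them. Against libraries 1 and 2 alone the falls were 0.60 and 0.52, and against 3 and 4 alone 1.93 and 1.82, and each passed the test. Against all 4 unstimulated libraries Ptprc (CD45) fell by 0.58 (LPS) and 1.06 (IL-4+anti-CD40). Inpp5d (SHIP-1) fell by 0.81 under LPS, but its -0.32 under IL-4+anti-CD40 did not pass the test (adjusted p = 0.088). These values depended on the unstimulated pair. Under LPS, Inpp5d was -1.07 against libraries 1 and 2 alone, but -0.47 against 3 and 4 alone. Under IL-4+anti-CD40 it was -0.61 (adjusted p = 3.9e-05) against the former, but 0.0076 (adjusted p = 0.93) against the latter. For Ptprc the same pairs gave -0.25 and -0.81 (LPS), then -0.76 and -1.30 (IL-4+anti-CD40). DSF lowered Ptpn6 further by 0.49 and 0.46 and Inpp5d by 0.27 and 0.16. Ptprc rose with DSF under IL-4+anti-CD40 by 0.33 and had -0.06 under LPS (adjusted p = 0.21). Inpp5b fell with DSF under IL-4+anti-CD40 by 0.65.

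Other kinases, adaptors and calcium genes showed the following extremes. With DSF under LPS, the adaptors Gab2 (1.63) and Lat2 (1.56) rose most beside Cd5, and Rasgrp3, a Ras exchange factor activated downstream of Plcg2, fell most (-1.60). Gab2 was at a low level, 1.27 ± 0.12 FPKM without DSF and 3.87 ± 0.21 FPKM with it. With DSF under IL-4+anti-CD40, the Src-family kinase Blk rose from 89.5 ± 19.9 to 226 ± 4.15 FPKM (1.32, SE 0.13, adjusted p = 7.1e-06). At low levels, Ceacam1 rose by 1.34, from 0.70 ± 0.22 to 1.79 ± 0.21 FPKM. The adaptor Sh2b2 fell by 0.62, from 2.50 ± 0.28 to 1.65 ± 0.30 FPKM. LPS raised Pik3ap1 (BCAP) from 68.2 ± 16.8 to 198 ± 3.22 FPKM (1.55), Sos1 by 0.90 and Sh3bp2 by 0.81. It lowered Dok3 by 2.27 (SE 0.27), from 126 ± 48.5 to 25.9 ± 1.83 FPKM. IL-4+anti-CD40 raised Orai1, the pore of the store-operated calcium channel, by 1.23, Dapp1 by 0.85 and Malt1 by 0.81. It lowered Cd38 by 3.23 (SE 0.50), from 47.5 ± 30.3 to 5.05 ± 1.62 FPKM. The unstimulated libraries of Dok3 and Cd38 were widely spread, and their values against the library pairs are not given here. With LPS rather than IL-4+anti-CD40, the ubiquitin ligase Cblb was 9.36 times as high, and Dapp1 and Malt1 were lower by 1.93 and 1.21.

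Over the 20 libraries of experiment 1 some members ran together, as a description without a test, since the libraries share 5 conditions. Pearson r of log2 CPM was 0.97 between Cd79a and Syk, 0.92 between Cd79a and Btk and 0.92 between Btk and Syk. By contrast it was 0.24 between Cd79a and Cd79b, and lowest between Cr2 and Lyn, at -0.45. Among all genes the profile most like Cd79a was Rnf167 (r = 0.99), followed by Fcmr and Pitpnc1. For Cd22 the 3 nearest were Kbtbd11, Ptpn6 and Slamf6 (r = 0.98, 0.98 and 0.97), and for Plcg2 Nedd4l, Blvrb and Klf4 (0.97, 0.97 and 0.96). Cr2 was nearest to Zfp217 (0.98), Gimap3 and Ffar2, Btk to Pbxip1 (0.99), Pcmtd2 and Slc25a45, and Syk to Stk26 (0.99), Zfp831 and Acsf2. Cd79b was nearest to Exo5 (0.98), Kdm4a and Snn, Lyn to BC051226 (0.99), Elf1 and Map3k5, and Blnk to Kcnk5 (0.94), Cobll1 and St6galnac3.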

How the data were processed

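Poly-A RNA-seq libraries of mouse splenic B cells were analysed, 20 in 5 groups of 4 (experiment 1) and 7 single libraries (experiment 2). The authors trimmed reads with Fastp, aligned them to mm10 with HISAT2 2.0.5 and deposited raw counts per gene from featureCounts 1.5.0-p3. The FPKM values were also computed and deposited by the authors, from those counts and the gene length. The annotation release and the strand setting are not given in the sources used here. Totals were 17804851 to 23632992 counts in experiment 1 and 16049295 to 24619776 in experiment 2. No 2 replicates agreed within counting noise (chi-square per gene 2.86 to 90.8 over 30 pairs).

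Counts were tested with edgeR 4.0.16 (R 4.3.3; quasi-likelihood test, TMM, filterByExpr, the 2 groups of each comparison, Benjamini-Hochberg over all genes, threshold 0.05). The interaction used 16 libraries. Experiment 2 was given as TMM-scaled log2 ratios (prior count 2, mean of at least 10 counts) with 95% counting intervals. On simulated data for DSF in LPS-stimulated cells, edgeR recovered 89 of 100 genes planted at a log2 change of 1 and 96 of 100 at 2, with 10 false calls among 14006 genes. In that simulation few genes changed, equally up and down, and all genes shared the same spread setting. In the real comparison 35.1% of genes were called higher and 36.0% lower, so the simulation does not measure the error rate there. Tables were handled with Python 3.11.15, pandas 2.3.3 and numpy 2.4.6 and plots drawn with matplotlib 3.10.9.

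The 9 members are named throughout, with the 3 called pathway genes of greatest change in each direction per comparison, the partner genes Ptprc, Ptpn6, Inpp5d, Fcgr2b, Ighm and Ighd and the 3 genes most like each member by Pearson r of log2 CPM. Some genes that this rule names are not reported here. The members and lists were chosen with earlier results of these data known. Alternatives were DESeq2 1.42.0, its size factors, total-count scaling, other count filters, 1 fit of all 20 libraries, a replicate block and leaving out each library, and, chosen after seeing the data, the use of library pairs. Same-numbered libraries of different groups deviated together with correlations of -0.07 to 0.35. The highest were 0.35 and 0.34, for libraries 1 and 4 in the comparison of DSF with IL-4+anti-CD40. Libraries 2 and 3 had -0.02 and -0.06 there, and the other comparisons reached at most 0.15. The numbers were not taken as pairs in the main fits, and the replicate block was an alternative.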

Additional observations from a re-analysis of the deposited data

Results flagged for a closer look

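Cr2 in the 4 LPS libraries held 1 library apart from the rest, at 16.5 FPKM against 15.4 to 15.6 FPKM. The gap was 0.830 of the range of the group, just past Dixon's 95% critical value for 4 samples. Of 45 groups examined 1 passed this limit, and chance passes about 1 group in 20.

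In all, 6 members answered DSF differently under the stimuli by the interaction term, given as the LPS difference minus the IL-4+anti-CD40 difference on the log2 scale. The terms were -0.77 for Lyn, -0.65 for Cd79a, -0.63 for Btk, -0.58 for Syk and -0.38 for Blnk. For Cr2 the term was 1.04. All 6 passed the edgeR test over 16 libraries, and those of Cr2 and Blnk did not in the fit over all 20.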

How the results depend on the processing

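Of the 72 member values (9 genes in 8 comparisons), all 72 kept direction and side of the threshold with DESeq2 and with its size factors. Scaling by total counts moved the median of all genes by -0.05 to -0.41 on the log2 scale, and the share of called genes that were higher fell by more than 10 percentage points in each comparison: from 47.1% to 31.2% for LPS and from 48.6% to 38.3% for IL-4+anti-CD40 against unstimulated cells, from 56.3% to 34.0% between the stimuli, from 47.9% to 29.7% for LPS with DSF and from 48.6% to 31.6% for IL-4+anti-CD40 with DSF against unstimulated cells, and from 53.2% to 36.7% for the interaction. On that scale 0 members were called higher with LPS, 6 pathway genes were higher with LPS, 5 with LPS plus DSF and 9 under IL-4+anti-CD40 plus DSF, and 25 were lower with LPS than with IL-4+anti-CD40. Also on that scale, Lyn under DSF and IL-4+anti-CD40 was -0.13, Plcg2 in LPS with DSF against unstimulated cells -0.0048, the Cd79b interaction -0.0049, and 2 members were 2-fold lower with DSF than with ibrutinib under LPS in experiment 2. With at least 10 counts in every library, Btk under DSF and LPS was 0.00057.

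In the fit of all 20 libraries, 11 pathway genes fell with DSF under IL-4+anti-CD40, 1 member was higher in LPS with DSF than in unstimulated cells, the interaction called 0 members higher and 1 pathway gene higher and 11 lower, and the Cd79b interaction was -0.023.

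With the library pairs the comparisons with unstimulated cells moved most, and the cause was not tested. Using libraries 1 and 2 of every group, and then only unstimulated libraries 1 and 2, the members called higher were 3 and 3 (LPS), 1 and 1 (IL-4+anti-CD40), 2 and 2 under LPS plus DSF, and 3 and 3 under IL-4+anti-CD40 plus DSF. In the same order Cr2 was 0.34 and 0.35 with LPS and 1.20 and 1.102 under IL-4+anti-CD40 plus DSF, Plcg2 was 0.40 and 0.38 under IL-4+anti-CD40 plus DSF, and Blnk was 0.34 and 0.31 with LPS, 0.22 and 0.21 under LPS plus DSF, and 0.20 and 0.22 under IL-4+anti-CD40 plus DSF. Libraries 1 and 2 of every group gave 2 members with a higher interaction term. Libraries 3 and 4 of every group gave interaction terms of -0.19 for Cd79b, 0.080 for Cd22 and 0.21 for Plcg2. Cr2 with IL-4+anti-CD40 was -0.53 with libraries 3 and 4 of every group and -0.37 with only those of the unstimulated cells.

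Leaving out each library in turn left 617 member values on the same side, with 20 weaker, 3 stronger and 8 reversed. Members called higher in LPS with DSF against unstimulated cells numbered 0 to 1. Blnk with LPS ranged from -0.18 to 0.049 (0.040 without unstimulated library 4), and Plcg2 under IL-4+anti-CD40 plus DSF against unstimulated cells from -0.16 to 0.14 (0.046 and 0.012 without unstimulated library 4 and DSF library 3). The interaction of Cd79b ranged from -0.015 (without IL-4+anti-CD40 library 2) to 0.11, and that of Plcg2 from -0.14 to 0.045 (0.045 and 0.031 without IL-4+anti-CD40 libraries 1 and 2).

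The replicate block kept 68 of 72 member values. It ended the calls of Cr2 with LPS (-1.19, adjusted p = 0.20), Plcg2 with LPS (-0.51, adjusted p = 0.054) and Cr2 in LPS with DSF (-1.74, adjusted p = 0.077), and gave 0.032 for Plcg2 in IL-4+anti-CD40 with DSF against unstimulated cells. In experiment 2 a single library per condition leaves the spread between libraries unknown.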
